A study of Mus musculus with 26 samples.

Results

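Malat1, Neat1, Meg3, Rian, Mirg, Miat and Snhg11 are long RNAs without a large open reading frame that stay mostly in the cell nucleus, although the annotation used types Snhg11 as protein-coding. These 7 genes were taken as a named list, matched by Ensembl identifier among the 55401 genes counted in 26 mouse RNA-seq libraries from dorsal root ganglia (which house the cell bodies of sensory neurons) and from neurons cultured from them. All 7 were found in every library, with 23 counts (Mirg) to 25440 counts (Malat1) in a single library, and all passed the filter on low counts. The members were chosen by their values in cultured neurons, cKO against control, so those values are given as a description without a test. All other comparisons were tested.

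The study deleted Ahr, the gene of the aryl hydrocarbon receptor, a ligand-activated transcription factor, and asked how this affects ganglia and axon regeneration after nerve injury. The conditional knockout mice, abbreviated cKO, carried Ahr fl/fl and the Thy1CRE-ERT2/EYFP transgene, so that tamoxifen deletes Ahr in cells with an active Thy1 promoter. Control mice lacked the Cre transgene and carried either Ahr fl/fl or Ahr fl/+. Mice of the naive and injured groups of both genotypes received tamoxifen at 100 mg/kg daily for 5 days at 28 weeks of age, and their L4 to L6 ganglia were taken 5 weeks later. Each of these libraries came from 1 mouse. There were 3 naive control, 3 naive cKO, 3 injured control and 3 injured cKO libraries, the injured ones taken 1 day after crush of the sciatic nerve. In both conditions, control replicates 1 and 2 were Ahr fl/+ and replicate 3 was Ahr fl/fl. A further 8 libraries came from ganglia on the operated (ipsilateral) and the opposite (contralateral) side 1 day after sham surgery, with 2 libraries for each genotype and side, control replicate 1 being Ahr f/+ and replicate 2 Ahr fl/fl. The last 6 were semi-purified neurons kept in culture for 24 h after seeding, 3 from cKO mice and 3 from Ahr fl/fl controls. Age and tamoxifen dose of the mice behind the sham and culture libraries are not given in the sources used here.

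Malat1 gathers in nuclear speckles, the domains where splicing factors are stored, and Neat1 is the scaffold on which paraspeckles, neighbouring bodies that hold RNA-binding proteins, are built. Meg3, Rian and Mirg lie next to each other in the imprinted Dlk1-Dio3 region, are expressed from the maternal chromosome, and host clusters of small nucleolar RNAs and microRNAs. Miat, also called Gomafu, is a nuclear RNA of neurons that binds splicing factors, and Snhg11 is a host gene of small nucleolar RNAs that is strong in brain.

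On GRCm38 in the GENCODE M21 annotation, Malat1 (ENSMUSG00000092341) spans chr19:5795690-5802672 on the minus strand as 1 exon block. Neat1 (ENSMUSG00000092274) spans chr19:5824708-5845478 on the same strand, also as 1 exon block. Meg3 (ENSMUSG00000021268) at chr12:109541001-109571726, Rian (ENSMUSG00000097451) at chr12:109603940-109661716 and Mirg (ENSMUSG00000097391) at chr12:109729764-109749460 all lie on the plus strand, with 8, 19 and 14 exon blocks. Miat (ENSMUSG00000097767) is at chr5:112213228-112229395 on the minus strand with 6 exon blocks. Snhg11 (ENSMUSG00000044349) is at chr2:158375638-158386145 on the plus strand with 4 exon blocks. Counts cover the whole span of a gene, introns included, and ignore strand.

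The libraries were made with a kit that selects polyadenylated RNA, and the 3′ ends of Malat1 and Neat1 are shown because these RNAs differ in how their ends are made. The Malat1 end is cut by RNase P and protected by a triple helix instead of a poly(A) tail. The long Neat1 transcript ends in a similar way, and the short one is polyadenylated from the same start. Sequences are from the GENCODE M21 transcripts, 5′ to 3′, with runs of 12 or more A in capitals for Malat1 and the polyadenylation signal AATAAA in capitals for Neat1.
Malat1-201, chr19:5795964-5796023, minus strand: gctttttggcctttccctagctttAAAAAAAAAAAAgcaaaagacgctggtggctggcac
Neat1-201 (long), last 60 bases, chr19:5824708-5824767, minus strand: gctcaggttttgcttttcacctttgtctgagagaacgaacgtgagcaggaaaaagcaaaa
Neat1-202 (short), last 60 bases, chr19:5842307-5842366, minus strand: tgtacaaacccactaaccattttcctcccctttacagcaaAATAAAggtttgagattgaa
The Malat1 stretch holds a run of 12 A, and 274 annotated bases follow it. AATAAA stands once in the last 60 bases of the short Neat1 transcript of 3004 bases, and these letters are not in the last 60 bases of the long one of 20771 bases. How the kit's selection bears on the counts of either gene was not tested.

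Promoters were read from RefSeq on GRCm38.p6, as windows of 300 bases around the start, most of them upstream, where the table held 6 of the 7 members, with 2 starts for Meg3. The 3 motifs searched on both strands were GCGTG, the core of the site of the aryl hydrocarbon receptor and its partner ARNT, TGANTCA, the site of AP-1, and TGACGTCA, the cyclic AMP response element. The promoters with a match are printed because the deleted gene encodes the receptor. Matches are in capitals, and CACGC is GCGTG read from the opposite strand.
Meg3, first start, chr12:109540746-109541045, plus strand: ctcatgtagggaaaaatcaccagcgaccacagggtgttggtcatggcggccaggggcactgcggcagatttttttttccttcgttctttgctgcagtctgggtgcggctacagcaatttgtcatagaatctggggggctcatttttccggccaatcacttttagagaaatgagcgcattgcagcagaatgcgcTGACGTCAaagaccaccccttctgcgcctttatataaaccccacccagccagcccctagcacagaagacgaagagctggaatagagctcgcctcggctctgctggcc
Miat, chr5:112228899-112229198, minus strand: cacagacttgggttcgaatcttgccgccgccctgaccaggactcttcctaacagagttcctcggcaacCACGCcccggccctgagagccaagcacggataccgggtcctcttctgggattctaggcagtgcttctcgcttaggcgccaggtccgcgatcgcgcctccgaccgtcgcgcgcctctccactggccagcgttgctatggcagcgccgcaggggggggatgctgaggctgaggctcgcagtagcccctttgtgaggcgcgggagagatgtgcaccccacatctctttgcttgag
Snhg11, chr2:158375463-158375762, plus strand: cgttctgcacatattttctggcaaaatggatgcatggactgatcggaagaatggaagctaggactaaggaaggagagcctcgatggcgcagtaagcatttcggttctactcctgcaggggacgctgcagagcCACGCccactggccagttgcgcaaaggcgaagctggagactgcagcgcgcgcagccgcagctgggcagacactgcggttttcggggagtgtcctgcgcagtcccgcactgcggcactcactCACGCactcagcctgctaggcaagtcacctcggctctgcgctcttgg
Meg3 held TGACGTCA 57 bases before its start. Miat held GCGTG once, 182 bases before its start, and Snhg11 held it 118 bases before and again 3 bases after the start. Of all 32851 promoters in the table, 32.4% held GCGTG, 7.81% TGANTCA and 1.79% TGACGTCA, so GCGTG in 2 of 6 members is close to the share over all promoters. The windows of Malat1, Rian, Mirg and the second Meg3 start did not hold these letters.

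Library totals were 20169388 to 23540375 counts in naive and injured ganglia, 39306414 to 58751270 in sham ganglia and 25299938 to 88180611 in the cultures, where control replicate 1 was the shallowest. Ahr itself, counted over the whole gene, was at 18.9 to 23.8 CPM (counts scaled to a common library size) in naive control and 22.7 to 28.1 in naive cKO libraries, and at 44.7 to 56.1 in control and 44.3 to 56.6 in cKO cultures. Between cKO and control its log2 fold changes were 0.17 in naive, 0.07 in injured, 0.03 and 0.06 in sham ganglia and -0.05 in cultures. A count over the whole gene does not separate the floxed part, so it cannot check the deletion. Thy1 was higher in every cKO library than in every control library of the same tissue and condition, for example at 1250 to 1420 against 707 to 807 CPM in naive ganglia. By sex-linked transcripts, all naive and culture libraries came from females and all sham libraries from males. The injured control libraries were female, and of the injured cKO libraries replicate 1 was female and replicates 2 and 3 were male. The sex transcripts went against the label in 2 libraries, injured control replicate 3 and injured cKO replicate 2, and the main results on injured ganglia are given with and without them. The summed level of 10 neuron markers was 3980 to 4980 CPM in the cultures against 7770 to 10800 in ganglia, that of 5 Schwann cell markers 585 to 743 against 2730 to 5170, and that of 5 endothelial markers 892 to 1380 against 61.7 to 155. The cultures labelled semi-purified neurons therefore held less neuron marker RNA and more endothelial marker RNA, in CPM, than whole ganglia. In bulk RNA, fewer cells of a type and less RNA per cell cannot be told apart.

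Across the 10 groups, 6 of the 7 members were highest in control cultures and second in cKO cultures, and Rian was lowest in these groups (plot of the members in all libraries). Malat1 averaged 230.3 ± 55.4 CPM (SD, n = 3) in control cultures and 104.1 ± 1.24 in cKO cultures, against 23.65 ± 4.15 in naive control ganglia. The ratio of control cultures to naive control ganglia was 9.74 for Malat1, 3.58 for Meg3, 2.8 for Mirg, 2.53 for Miat, 2.44 for Neat1, 2.4 for Snhg11 and 0.792 for Rian. For the 6 higher members each of the 6 culture libraries lay above all 20 ganglia libraries. The sham ganglia, deposited in the same table as the cultures, had Malat1 at 9.99 to 22.7 CPM. Cultures and ganglia differ in preparation and cell makeup, which cannot be told apart, and these ratios were not tested.

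Among the ganglia, the highest library was 3.0 times the lowest for Malat1, 2.74 times for Neat1 and 2.71 times for Mirg, and less for the other members. Malat1 ranged from 9.99 to 30 CPM over the 20 libraries, and all sham group means were below all naive and injured ones. Neat1 ranged from 9.95 to 27.3 CPM, Snhg11 from 38.7 to 54.8 and Rian from 108 to 150.0. Mirg, a host of microRNAs, was at 0.842 to 2.28 CPM. In the order of the group means, naive and injured groups that stood next to each other overlapped for each of the 7 members. The step from the lower of the culture groups to the highest ganglia group showed no overlap for the 6 members that were higher in culture.

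**Figure D1:**
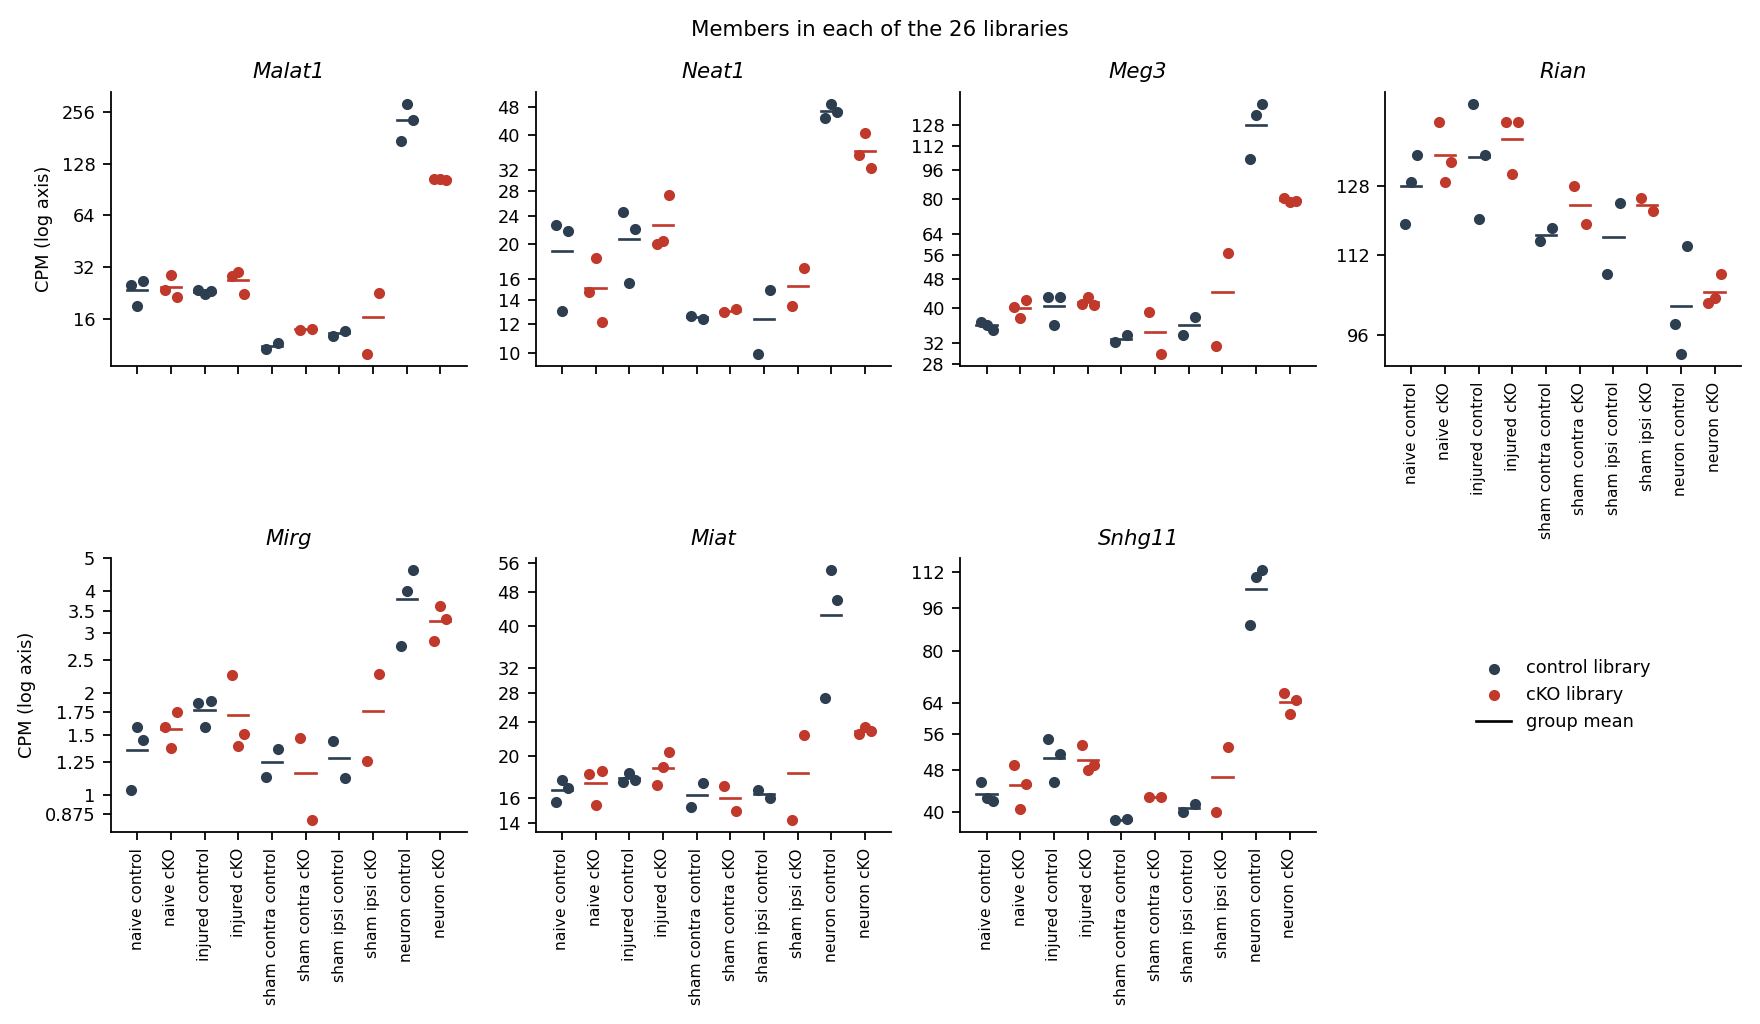
CPM of each of the 7 members in all 26 libraries on a logarithmic axis (one point per library, dark for control and red for cKO, a bar for the group mean, groups along the horizontal axis). The members other than Rian are highest in the 6 culture libraries, where Malat1 reaches 285 CPM, and Rian is lowest there at 92.5 CPM.

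Levels of different genes were compared only per length, on the deposited FPKM scale, which divides by the span of the gene. In ganglia Snhg11 was highest, with a median of 4.16 FPKM over 20 libraries, followed by Malat1 at 3.12, Rian at 2.18, Meg3 at 1.24, Miat at 1.07, Neat1 at 0.724 and Mirg at 0.0743. The order of Malat1 and Rian differed between the sets of ganglia. In naive and injured ganglia Malat1 was at 2.72 to 4.21 FPKM and Rian at 2.02 to 2.57, whereas in 7 of the 8 sham libraries Malat1 was below Rian, at 1.44 to 1.99 against 1.86 to 2.17 FPKM. The exception was ipsilateral cKO replicate 2, with Malat1 at 3.27. In control cultures Malat1 led with a mean of 33.0 FPKM, ahead of Snhg11 at 9.89 and Meg3 at 4.17. Rian was at 1.75 FPKM there, below Miat at 2.62 and Neat1 at 2.24 and above Mirg at 0.192. Exons make up 18234 of the 57777 bases of Rian and all bases of Malat1 and Neat1, and this scale counts introns as length.

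In the cultured neurons, 5 members were lower in all 3 cKO libraries than in all 3 control libraries: Malat1, Miat, Snhg11, Meg3 and Neat1. Over all 23295 genes of this fit, 15.2% had groups without overlap and 7.69% were lower without overlap. The list was drawn up from this contrast, so no test is attached and nothing is read from that share. Over the whole fit 0 genes had an adjusted p under 0.05 by the quasi-likelihood test of edgeR, 0% of those tested, and 1863 had an unadjusted p under 0.05. The median log2 fold change, cKO against control, was -0.70 over the 7 members and -0.003 over all genes.

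Malat1, the speckle RNA, was at 174, 285 and 232 CPM in control replicates 1, 2 and 3 and at 105, 105 and 103 in the cKO replicates. Every control library was above every cKO library, the lowest control at 1.66 times the highest cKO, and the fitted log2 fold change was -1.15. The coefficient of variation was 24.0% in control and 1.19% in cKO libraries. Neat1, the paraspeckle scaffold, was at 44.6, 48.8 and 46.5 CPM in control and at 35.3, 40.7 and 32.5 in cKO cultures. Its groups were apart by a factor of 1.1 at their nearest libraries, with a log2 fold change of -0.37. Here the control libraries were the tighter group, with a coefficient of variation of 4.51% against 11.5%.

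The members of the imprinted region did not share a pattern. Meg3, the first gene of the maternal transcripts, was at 103, 136 and 146 CPM in control and 80.3, 78.3 and 79.0 in cKO cultures. The groups did not overlap and the log2 fold change was -0.70. Rian, downstream of Meg3 on the same strand, was at 98.0, 92.5 and 114 CPM in control and 102, 103 and 108 in cKO cultures. These ranges overlapped, with all cKO values inside the control range, and the log2 fold change was 0.04. Mirg, further downstream, was at 2.75, 4.01 and 4.6 CPM in control and 2.85, 3.61 and 3.3 in cKO cultures. Its ranges overlapped through control replicate 1, with a log2 fold change of -0.24. Leaving out control replicate 1 or control replicate 3 raised the number of members without overlap from 5 to 6, adding Mirg on the lower and Rian on the higher side.

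Miat, the Gomafu RNA of neurons, was at 27.2, 53.8 and 46.0 CPM in control and 22.5, 23.3 and 22.8 in cKO cultures. Control replicate 1 was 1.17 times the highest cKO library, the other control libraries were higher still, and the log2 fold change was -0.90. Snhg11 was at 89.5, 110.0 and 113 CPM in control and 66.8, 61.0 and 64.8 in cKO cultures. The groups did not overlap, with a log2 fold change of -0.70. Control replicate 1 was the lowest control library in every member but Rian, where it lay between the other two.

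**Figure D2:**
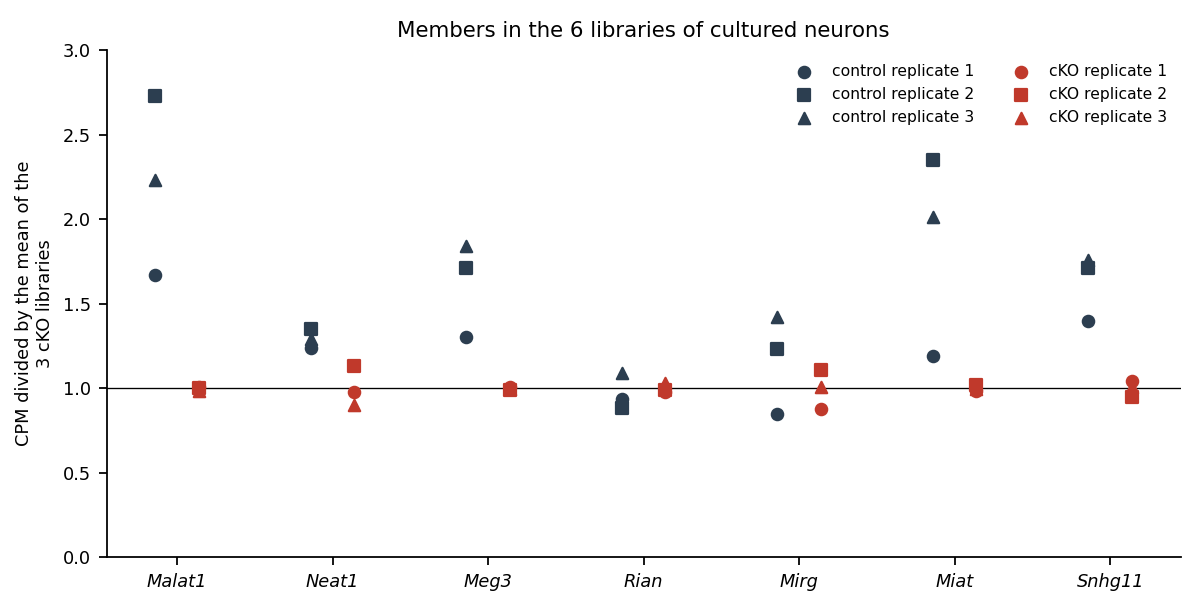
CPM of each member in the 6 culture libraries divided by the mean of the 3 cKO libraries (vertical axis, ratio; dark for control, red for cKO, marker shape for the replicate number; the line marks a ratio of 1). Control libraries of Malat1, Miat, Snhg11, Meg3 and Neat1 lie above all cKO libraries, and those of Rian and Mirg overlap with them.

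Other measures moved with the cultures. Control replicate 1 had 25299938 counts against 60139821 to 88180611 in the other 5 libraries, 13 mitochondrial mRNAs summing to 6340 CPM against 3690 to 4260, and 5 satellite glia markers summing to 2340 CPM against 1440 to 1750. The 5 endothelial markers summed to 972 to 1380 CPM in control and 892 to 997 in cKO cultures, overlapping, with all 5 log2 fold changes below 0. The 5 Schwann cell markers summed to 631 to 743 CPM in control and 585 to 611 in cKO cultures, without overlap and also with all 5 below 0. The 5 red blood cell markers, hemoglobins and Alas2, summed to 5.14 to 11 CPM in control and 11.4 to 25.3 in cKO cultures. Neuron markers summed to 3980 to 4980 CPM in control and 4720 to 4820 in cKO cultures, and skeletal muscle markers to 3.47 CPM or less in any culture. The part of these in the members' values was not tested. With each of the 6 libraries left out in turn, the log2 fold change ranged from -1.31 to -0.97 for Malat1, -1.13 to -0.69 for Miat, -0.83 to -0.60 for Meg3, -0.80 to -0.64 for Snhg11, -0.47 to -0.30 for Neat1 and -0.40 to -0.086 for Mirg. For Mirg the extremes came without control replicate 1 and without control replicate 3, in that order, and it was -0.15 without cKO replicate 1. For Rian, near 0, the sign changed, with values from -0.022 to 0.137.

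Proteins of the same nuclear bodies were described in the cultures from lists drawn up with earlier results of these data known. Of 18 nuclear speckle and splicing proteins, all 18 had a log2 fold change below 0 in cKO cultures, 10 of them without overlap, with a median of -0.14 against -0.003 over all genes. Over all genes 7.69% were lower without overlap, and no list was tested here. The largest was -0.32 for Srsf2, a serine and arginine rich splicing factor. Of 14 paraspeckle proteins, 11 had a log2 fold change below 0, 6 of them without overlap, including Sfpq at -0.25, and Rbm14 was higher without overlap at 0.15. Of 21 other long noncoding RNAs measured, 15 were below 0 and 6 of these did not overlap, including H19, a maternally expressed imprinted RNA, at -0.97, Firre at -0.67 and Rmst at -0.62. Tug1, another widely expressed nuclear RNA, was at 0.02 with overlap. Other genes of the Dlk1-Dio3 region all overlapped between the genotypes, with 4 of 5 above 0. The values for the proteins are changes of mRNA. All are smaller in size than those of Malat1 and Miat, which were chosen by their values in this contrast.

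In naive ganglia, the genotypes are compared without injury. The cKO mice also carried the Cre transgene, which controls lacked, and control replicates 1 and 2 were Ahr fl/+. Deletion, transgene and number of floxed copies cannot be told apart here. None of the 7 had an adjusted p under 0.05 by the quasi-likelihood test of edgeR with Benjamini-Hochberg adjustment, where 0.00941% of 21261 genes did. By the same test 1 member, Meg3, had an unadjusted p under 0.05, as did 1232 of all 21261 genes. Meg3 was at 36.6, 36.0 and 34.8 CPM in control and 40.3, 37.6 and 42.0 in cKO ganglia. The groups did not overlap, as in 11.5% of all genes (6.14% in this direction), and the log2 fold change was 0.16 ± 0.0711 (SE) with an adjusted p of 0.754. Neat1 was at 22.6, 13.1 and 21.7 CPM in control and 14.8, 18.3 and 12.2 in cKO ganglia. These values overlapped, with a log2 fold change of -0.34 ± 0.229 and an adjusted p of 0.755. It was -0.208 without control replicate 1 or without cKO replicate 3, and -0.55 without control replicate 2. All 5 macrophage markers were below 0 in the same comparison, with a median of -0.378 and none called. Their sums were 113, 69.1 and 104 CPM in control and 61.3, 99.5 and 74.7 in cKO ganglia, so the lowest control and the highest cKO library were the same as for Neat1. Endothelial markers summed to 131, 101 and 134 CPM in control and 95.6, 155 and 91.5 in cKO ganglia. Schwann cell markers, at 4120, 3780 and 4910 against 3290, 5170 and 3180, and fibroblast markers, at 803, 629 and 976 against 530, 856 and 749, had the same extremes. Neuron markers had the reverse, at 7770, 9220 and 8150 against 8700, 8000 and 8990. Satellite glia, red blood cell and skeletal muscle markers shared these extremes only in part. The part of these in the value of Neat1 was not tested. The direction of Meg3 in naive ganglia was opposite to that in culture.

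In injured ganglia, none of the 7 members passed the same test between genotypes, against 0.00941% of all genes, and none had groups without overlap, against 8.72%. Genotype and sex are partly confounded here, since by their transcripts cKO replicates 2 and 3 were male and the other injured libraries female. With sex read from the transcripts as a covariate, 0 genes were called. Malat1 was at 23.4, 22.3 and 23.3 CPM in control and 28.5, 30 and 22.3 in cKO ganglia. The ranges overlapped through cKO replicate 3, with a log2 fold change of 0.22 (95% confidence interval -0.10 to 0.54) and an edgeR adjusted p of 1. Without the libraries whose sex transcripts went against the label, it was 0.15. The interval spans a fall as well as a rise. Leaving out cKO replicate 2 gave 0.14 and leaving out cKO replicate 3 gave 0.35. Over the 7 members, log2 fold changes ran from -0.045 to 0.223 with a median of 0.051, against 0 over all genes. All 5 red blood cell markers were lower in cKO ganglia without overlap, with a median of -1.1. All 5 fibroblast and all 5 macrophage markers were below 0, with medians of -0.505 and -0.313. Of the satellite glia markers 3 of 5, and of the neuron markers 6 of 10, were above 0. No marker was called, and their part in the members' values was not tested.

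After nerve crush, 21.6% of genes were called in control and 18.6% in cKO mice by edgeR, and none of the 7 members was called in either. Without the 2 libraries of mismatched sex these shares were 18.5% and 11.1%, and with sex read from the transcripts as a covariate 22.3% and 6.65%, again with no member. In cKO mice, injury and sex are partly confounded, since 2 of the 3 injured and none of the naive libraries are male. In control mice, Snhg11 was at 45.6, 42.5 and 41.9 CPM in naive and 54.8, 45.5 and 51.4 in injured ganglia, with a log2 fold change of 0.22 ± 0.0827 (SE) and an adjusted p of 0.0765. Its ranges met at injured replicate 2, just below the highest naive library. Meg3 went from the naive values above to 43.0, 35.9 and 43.0 CPM, with a log2 fold change of 0.185 ± 0.0712 and an adjusted p of 0.0877. Again injured replicate 2 was the library inside the naive range. Without that library both were called by edgeR, Meg3 at an adjusted p of 0.0155 and Snhg11 at 0.0425, where 14.4% of all genes were called. With the replicate number as a block Snhg11 alone of the members was called, where 20.6% of all genes were. Without the libraries of mismatched sex the adjusted p was 0.272 for Meg3 and 0.18 for Snhg11. Mirg was at 1.03, 1.58 and 1.45 CPM in naive and 1.86, 1.59 and 1.89 in injured control ganglia. Its groups did not overlap, as was the case for 38.1% of all genes (21.1% in this direction). The log2 fold change was 0.39 ± 0.218, with an adjusted p of 0.232, and without the libraries of mismatched sex 0.34 and 0.382. It was 0.23 without naive replicate 1.

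The naive control libraries serve both this comparison and that of genotypes in naive ganglia. The naive cKO libraries likewise serve both the injury comparison in cKO mice and that of genotypes in naive ganglia. The injury comparisons in control and in cKO mice share no library. Neat1 was at 14.8, 18.3 and 12.2 CPM in naive and 20, 20.4 and 27.3 in injured cKO ganglia. The groups did not overlap, as in 36.1% of all genes (18.5% in this direction), and the log2 fold change was 0.58 (95% confidence interval 0.081 to 1.078) with an edgeR adjusted p of 0.105. With sex read from the transcripts as a covariate the log2 fold change was 0.40 and the adjusted p 0.545, and without the libraries of mismatched sex they were 0.64 and 0.17. In control mice Neat1 had a log2 fold change of 0.113, and the test of the difference, the interaction of genotype and injury, gave 0.47 (95% confidence interval -0.235 to 1.17) with an adjusted p of 1, and 0.58 without the libraries of mismatched sex. With single libraries left out it ran from 0.294, without injured control replicate 2, to 0.671, without naive control replicate 2, and was 0.302 without injured cKO replicate 3. The adjusted p was 0.858 or more in each of these fits. No gene passed that interaction test, so 0% were called by edgeR and none by DESeq2, with 627 genes and none of the 7 members at an unadjusted p under 0.05. Meg3 and Snhg11 had injury log2 fold changes of 0.06 and 0.16 in cKO mice, with adjusted p-values of 0.637 and 0.226. Without naive cKO replicate 2 these fold changes were 0.005 and 0.079. All 7 members were above 0 in cKO mice, with a median of 0.13 against -0.005 over all genes.

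Proteins of the nuclear bodies and other genes of the same classes were tested in the same fits. In control mice after crush, 7 of 14 paraspeckle proteins rose and none fell, among them Nono, a core paraspeckle protein, at a log2 fold change of 0.28, with Rbm14 at 0.39. Of 18 nuclear speckle and splicing proteins, 6 rose, among them Pnn at 0.25, Srsf2 at 0.33 and Srsf3 at 0.33, and none fell. Of 19 other long noncoding RNAs tested, 3 rose, namely the snoRNA host Snhg1 at 1.05, Tug1 at 0.19 and Mir124a-1hg, a host gene of a brain microRNA, at 0.50. In the imprinted region Dlk1, a paternally expressed membrane protein, fell by 1.34 and Wars, a tRNA synthetase, rose by 0.29. In cKO mice 1 paraspeckle protein, Nono, rose by 0.27, 3 speckle and splicing proteins rose, among them Pnn by 0.24, and 4 other long noncoding RNAs rose, which were Snhg1 at 0.89, Snhg17 at 0.75, Airn at 0.56 and Dleu2 at 0.45. Among all genes 12.9% were called higher and 8.73% lower in control mice, and 10.7% and 7.89% in cKO mice. Without the 2 libraries of mismatched sex, an alternative added for the lists after seeing the data, 5 paraspeckle proteins, 4 speckle and splicing proteins and 0 other long noncoding RNAs rose in control mice, where 10.8% of all genes did. Dlk1 was then not called, Wdr25 fell by 0.30, and Wars rose by 0.28. In cKO mice 1, 3 and 1 rose, namely Nono, 3 speckle and splicing proteins and Airn, against 6.92% of all genes. With sex as a covariate, likewise added, the counts in control mice were again 7, 6 and 3. In cKO mice 0 paraspeckle proteins, 3 speckle and splicing proteins and 1 other long noncoding RNA, Airn, then rose, where 4.68% of all genes did. Markers of cell types were also called in the fit without this covariate. In control mice 2 of 5 satellite glia markers rose and 1 fell, and 1 of 10 neuron and 1 of 5 endothelial markers fell. In cKO mice 1 satellite glia marker rose, and 2 neuron and 2 red blood cell markers fell, and none was called with sex as a covariate. Their part in the counts of the lists was not tested. No list member was called between the genotypes or in the interaction. Of 20 protein-coding neighbours within 100 kb of a member that were tested, Frmd8, beside Neat1, rose and Dlk1 fell in control mice, and Ehbp1l1, beside both Malat1 and Neat1, rose in cKO mice. Without the mismatched libraries Frmd8 and Cdc42ep2 rose in control mice, and no neighbour was called in cKO mice. With sex as a covariate Frmd8 and Cdc42ep2 rose and Dlk1 fell in control mice, and again none was called in cKO mice.

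**Figure D3:**
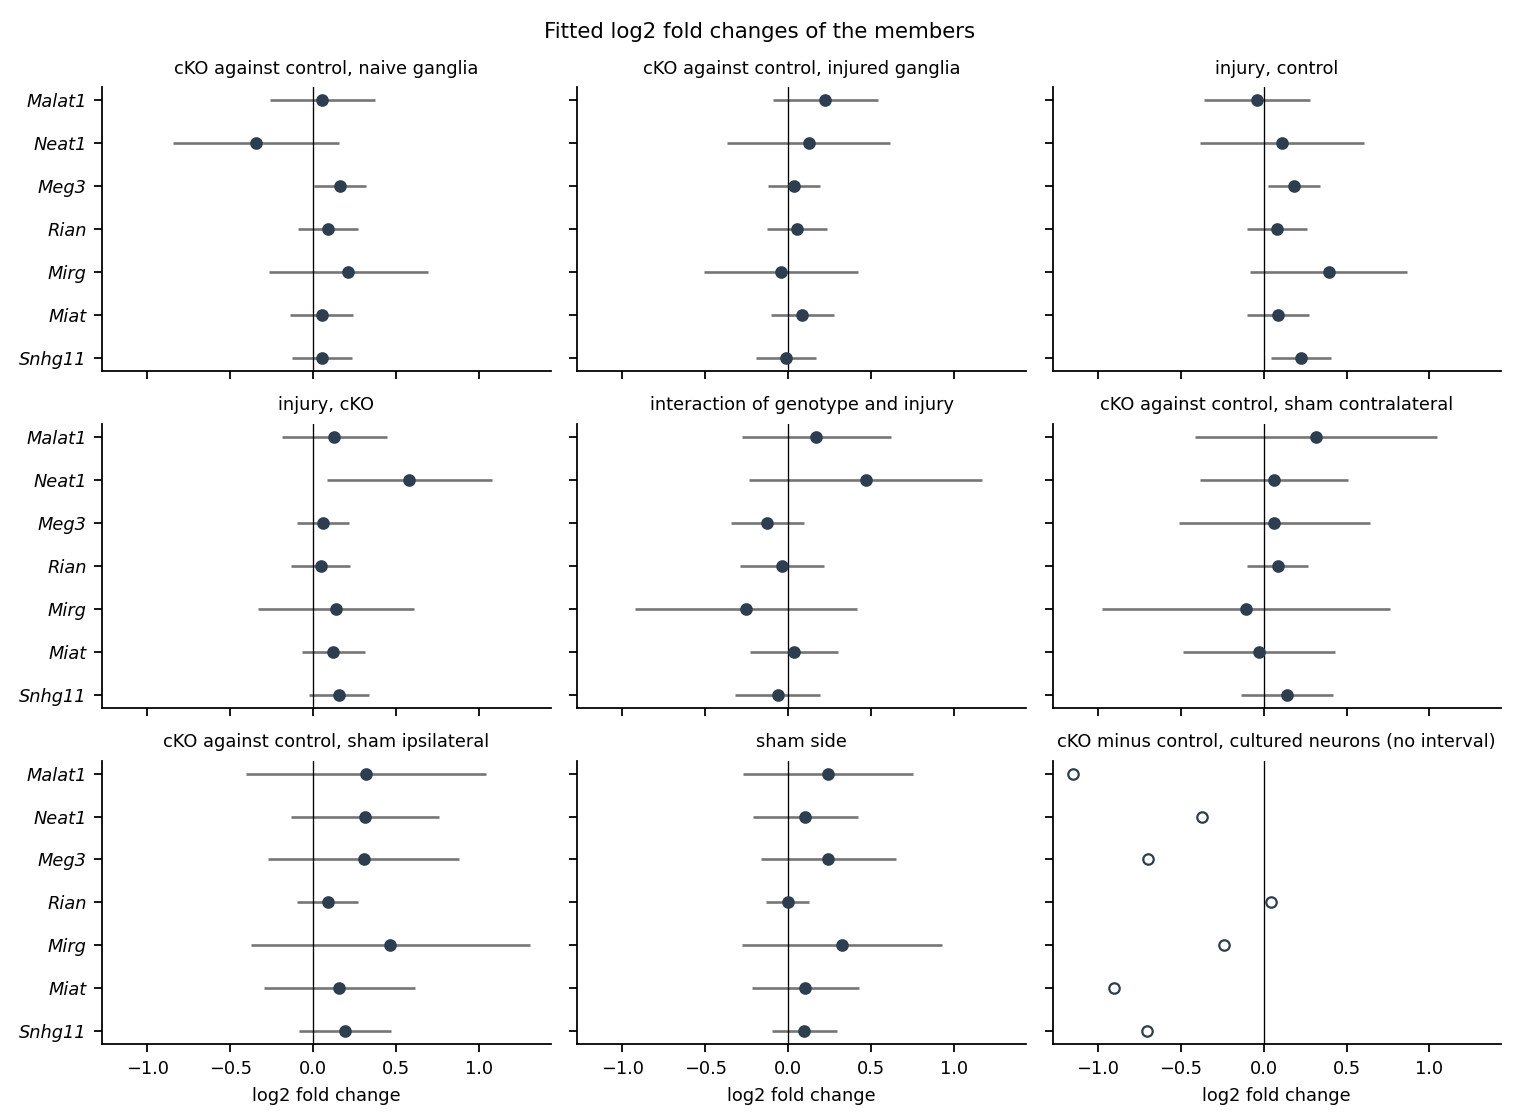
Fitted log2 fold changes of the 7 members in 8 tested comparisons, with bars for the 95% confidence interval, and in cultured neurons as open points without an interval, since that contrast was not tested. Values in ganglia lie between -0.343 and 0.579, and those in culture reach -1.15 for Malat1.

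After sham surgery, none of the 7 members was called between the genotypes on either side or between the sides, where 0.00451% of 22160 genes were called ipsilaterally, 0% contralaterally and 0.00451% between sides by edgeR. By DESeq2 these counts were 153, 31 and 200 genes, and again no member. Contralaterally, 1160 genes had an unadjusted p under 0.05 by edgeR. No member had ipsilateral groups without overlap, against 33.3% of all genes. Ipsilateral cKO replicate 2 stood apart. Malat1 was at 12.7 and 13.6 CPM in the ipsilateral control libraries and at 9.99 and 22.7 in cKO replicates 1 and 2. Meg3 was at 33.8 and 37.8 CPM in control and at 31.5 and 56.8 in cKO, and Mirg at 1.44 and 1.12 in control and at 1.26 and 2.28 in cKO. In both cases cKO replicate 2 was the high library and replicate 1 lay below or inside the control range. Rian was at 108 and 124 CPM in control and at 125 and 122 in cKO, with no library apart. Compared with the other 7 sham libraries, cKO replicate 2 was above all of them in 6 of 7 members, the exception being Rian.

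That library also carried skeletal muscle RNA. The summed level of 8 muscle markers, including the muscle creatine kinase Ckm and the skeletal actin Acta1, a list made after these values were seen, was 2480 CPM there, against 480 or less in the other 19 ganglia libraries. Contralateral cKO replicate 1 at 480 CPM and contralateral control replicate 2 at 385 followed, with Meg3 at 38.9 and 33.6 CPM and Malat1 at 13.7 and 11.5. The part of muscle RNA in the members' values was not tested. With both replicates the ipsilateral log2 fold change was 0.32 for Malat1, 0.30 for Meg3, 0.46 for Mirg and 0.09 for Rian, and without the library it was -0.41, -0.20, -0.05 and 0.08, a single cKO sample assumed to vary like the other groups. The edgeR adjusted p with the library was 0.817 or more for all members.

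**Figure D4:**
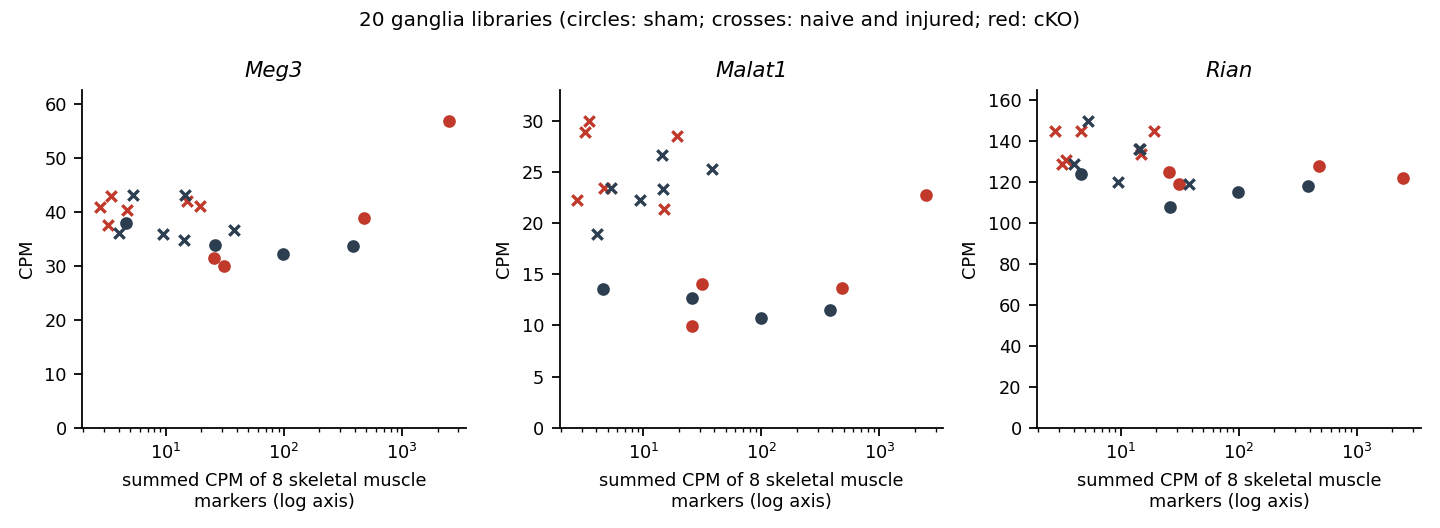
CPM of Meg3, Malat1 and Rian (vertical axes from 0) against the summed CPM of 8 skeletal muscle markers (logarithmic horizontal axis) in the 20 ganglia libraries, circles for sham and crosses for naive and injured, red for cKO and dark for control. The library at 2480 CPM of muscle markers has the highest Meg3, 56.8 CPM, the highest Malat1 of the sham libraries, 22.7, and Rian within the range of the others.

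On the contralateral side 4 members were higher in both cKO than in both control libraries, where 39% of all genes had groups without overlap (19.9% in this direction). Malat1 was at 10.7 and 11.5 CPM in control and 13.7 and 14 in cKO, Neat1 at 12.7 and 12.4 against 13.0 and 13.2, Snhg11 at 38.7 and 38.8 against 42.8 and 42.7, and Rian at 115 and 118 against 128 and 119. None was called, as was the case for all genes here, with edgeR adjusted p-values of 0.906 or more. The log2 fold changes were 0.32, 0.06 and 0.14 for Malat1, Neat1 and Snhg11. Mitochondrial mRNAs summed to 5140 to 6290 CPM in control and 8700 to 9550 in cKO contralateral ganglia, neuron markers to 9470 to 10100 against 10200 to 10800, and endothelial markers to 83.6 to 111 against 61.7 to 81.0. The groups of each did not overlap, and their part in these values was not tested. Between sides, log2 fold changes of the members ran from -0.005 for Rian to 0.324 for Mirg, with a median of 0.103 against 0.008 over all genes. Without ipsilateral cKO replicate 2 Rian was at -0.004, Mirg was at 0.073, Malat1 at -0.121 and Meg3 at -0.011, and the median was -0.011 against 0 over all genes.

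Some counted genes lie inside the members, and the share of a member's counts in these stretches gives a view along the RNA. Neat1 holds 3 short genes in 384 bases, 1.85% of its span, that start 441 bases from its 5′ end and lie in both the short and the long transcript. They took 10.8% to 13.6% of Neat1 counts in naive and injured ganglia, 11.6% to 16.5% in sham ganglia and 15.0% to 17.9% in cultures, in each library more than their share of the span. The naive and injured libraries were all below the cultures, and control and cKO cultures overlapped, at 15.0% to 17.9% and 15.0% to 16.2%. In Meg3, the 80 bases of Mir1906-1 took 0.115% to 0.838% of counts in the 12 naive and injured ganglia, with 1 to 7 counts each, 0.186% to 0.666% in sham ganglia, with 3 to 12, and 0.628% to 1.44% in cultures, with 16 to 136. Control culture replicate 1 gave the lowest of these culture shares. The Mir770 window of Meg3 had another order, at 0.33% to 0.738% in naive and injured ganglia, 0.59% to 1.19% in sham ganglia and 0.262% to 0.505% in cultures, and the ranges overlapped between naive and injured ganglia and each of the others. In Malat1 a window of 453 bases near the 5′ end took 4.53% to 7.32% in naive and injured ganglia, 2.44% to 4.93% in sham ganglia and 3.65% to 5.03% in cultures. Control culture replicate 1 was the highest culture there. In a window of 86 bases further along Malat1 it took 1.72%, against 0.841% to 0.936% in the other 5 cultures, 1.7% to 3.1% in naive and injured ganglia and 0.703% to 1.44% in sham ganglia. A fragment can count for a window by a short overlap, so these shares are not densities.

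Miat overlaps Gm26953, an antisense gene that covers 86.2% of its span and also reaches beyond its 5′ end. Without strand the reads of both cannot be told apart. All counts of Gm26953, those outside Miat included, were 44.6% to 55.2% of the counts of Miat. In cultures this ratio was 48.7% to 52.9%, much like 44.6% to 55.2% in naive and injured ganglia. Counts in the shared stretch alone were not available, so the ratio does not describe parts of Miat. Summed over the 26 libraries, the other members shared at most 15.1% of their counts with other counted genes, the highest being Neat1.

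**Figure D5:**
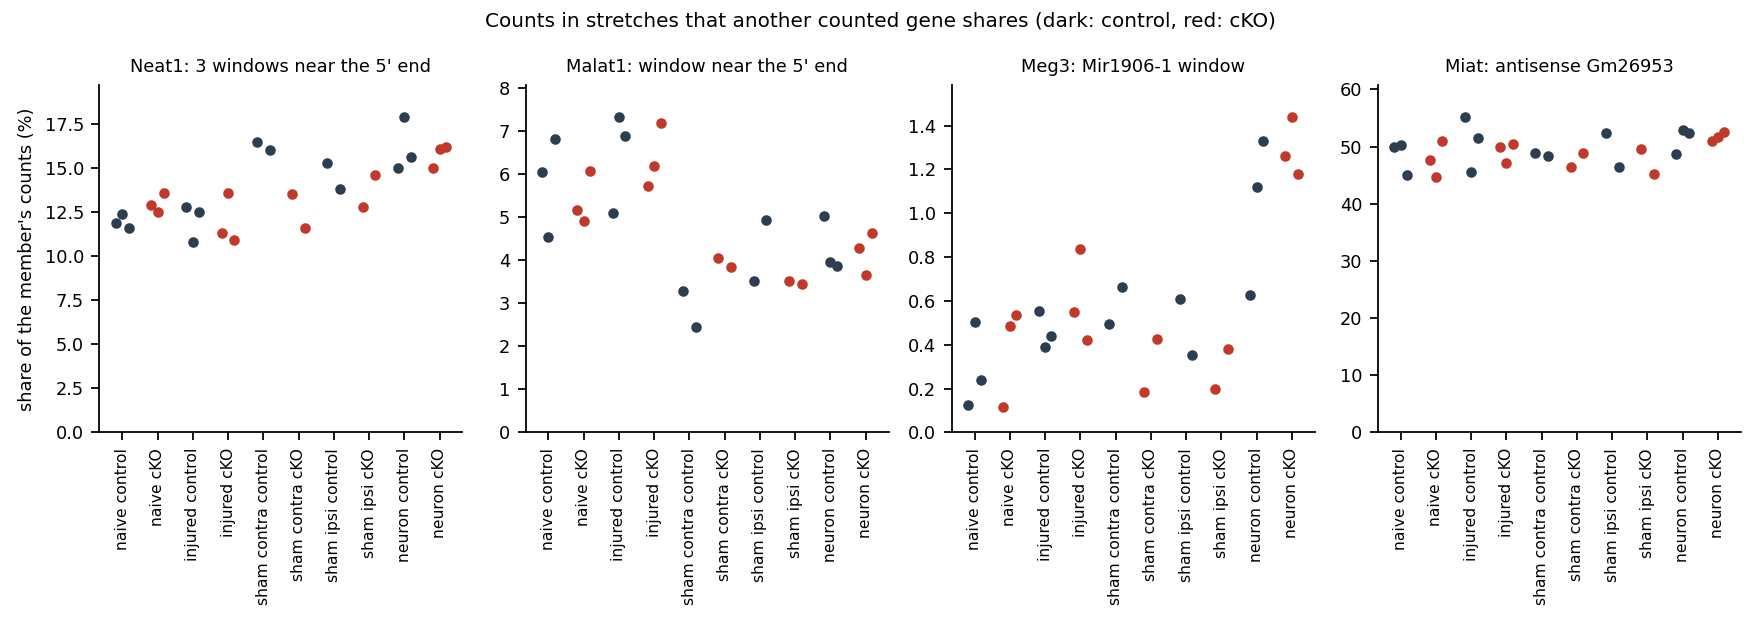
Counts of genes that lie inside a member, in percent of the member's counts with axes from 0, one point per library, for Neat1, Malat1 and Meg3. For Miat the points give all counts of the antisense gene Gm26953, which reaches beyond Miat, in percent of the counts of Miat. The Neat1 share is 15.0% to 17.9% in cultures and 10.8% to 13.6% in naive and injured ganglia, and the Miat ratio is 44.6% to 55.2% over all libraries.

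Across the 26 libraries, log2 CPM of the members other than Rian rose and fell together, with Pearson correlations from 0.763 for Neat1 and Miat to 0.973 for Meg3 and Snhg11, while Rian correlated negatively with each of the others, from -0.762 with Malat1 to -0.56 with Mirg. These values describe mainly the step from ganglia to culture that all libraries of a set share. Of deviations from the group means, which leave that step out, Meg3 and Snhg11 had 0.815, Meg3 and Miat 0.771 and Meg3 and Malat1 0.704. Without ipsilateral cKO replicate 2 these were 0.71, 0.708 and 0.367 over 25 libraries. Rian and Malat1 had -0.104.

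Of 14332 genes with a symbol and at least 1 CPM on average, those most like Malat1 over the 26 libraries were Slf2, a protein of DNA repair, at 0.975 and Clic5, a chloride channel protein, at 0.972. For Meg3 they were Fam193b at 0.957 and Leng8 at 0.954. For Neat1 they were Casp4, an inflammatory caspase, at 0.954 and Fbxl12 at 0.949, for Miat Slc12a3 at 0.896 and Fam193b at 0.886, and for Snhg11 Slc12a3 at 0.938 and Lncppara at 0.93. For Mirg they were Fbxo32 at 0.924 and Osbpl11 at 0.923, and for Rian Sms, spermine synthase, at 0.894 and Nptn, a neuronal adhesion protein, at 0.874.

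In deviations from the group means, Malat1 was most like Ttll4 at 0.904 and Clcn2 at 0.834, Neat1 like Gsdmd at 0.811 and Ccnl1 at 0.808, Rian like Osbpl1a at 0.824 and Uba3 at 0.823, Mirg like Fv1 at 0.805 and Asb16 at 0.771, and Snhg11 like Shld1 at 0.832 and Fbxo24 at 0.816. Meg3 was most like Perm1 at 0.93 and Pgam2, the muscle phosphoglycerate mutase, at 0.886, and Miat like Tmem38a at 0.872 and Speg at 0.863. Pgam2 was at 66.7 CPM in ipsilateral cKO replicate 2 and at 3.6 to 14.9 in the other 25 libraries, and without that library its correlation with Meg3 was 0.742. Asb16, Tmem38a and Speg were also highest in that library. Without it all pairs of Malat1, Meg3, Mirg, Miat and Snhg11 had lower correlations, such as 0.789 for Malat1 with Ttll4 and 0.846 for Meg3 with Perm1. Of the pairs of Neat1 and Rian, that of Neat1 with Gsdmd rose to 0.848 and that of Rian with Osbpl1a to 0.827.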

How the data were processed

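Per the submitters' processing notes, reads were trimmed with Trim Galore, aligned with HISAT2 to mm10 and counted with featureCounts. The authors deposited 2 tables of raw counts per gene (12 and 14 libraries) and matching FPKM tables. In the deposited FPKM values the length is the gene's span in GENCODE M21 within 0.1% for 99.38% of 40409 genes tested. Tsix held 100% to 100.3% of the Xist counts in 16 libraries, so counting ignored strand. Identifiers were matched without version to GENCODE M21, giving symbols for 55141 of 55401 genes.

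The 12 naive and injured, 8 sham and 6 culture libraries were fitted separately with edgeR 4.0.16 in R 4.3.3 (filterByExpr with minimum count 10 and total 15, TMM, 1 mean per group, quasi-likelihood test, two-sided, Benjamini-Hochberg over all genes kept, called under 0.05). This left 21261, 22160 and 23295 genes. The script was tested on simulated counts. CPM used TMM library sizes within each fit, and errors are SD unless called SE. Likeness used log2 CPM with a prior count of 2 over all 26 libraries. Alternatives were DESeq2 1.42.0, RLE factors, other filters, limma 3.58.1 on log2(FPKM + 0.1), an adjusted p under 0.1, replicate numbers as a block, sex, and each replicate left out. Leaving out 1 sham library and, for the gene lists, leaving out 2 injured libraries or adding sex were added after seeing the data.

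Genes named are the 7 members, list genes of the 3 smallest p in each direction among those called (1 of these is not reported here), the 2 genes most like each member by each measure, Ahr and Thy1. Genes named from the lists in cultures, those of the muscle list, Snhg1 in injured cKO ganglia, and Wdr25 and Cdc42ep2 were chosen after their values were seen. The members and lists were chosen with earlier results of these data known. Norad and Oip5os1 of the list of long noncoding RNAs were not matched. Libraries were grouped as the labels give them. Labels name a mouse for every library, and both sham sides come from the same mice.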

Additional observations from a re-analysis of the deposited data

Results flagged for a closer look

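In 4 of 70 pairs of genotype comparisons examined, every cKO library of a member was above the controls in one tissue and below them in another. All 4 involve cultured neurons, where the members were chosen for their values, so the sign there was set by the choice of members, and the differences between the tissues were not tested. For Malat1 the log2 fold change was 0.32 in contralateral sham ganglia and -1.15 in cultures. For Neat1 it was 0.06 and -0.37, and for Snhg11 0.14 and -0.70, in the same pair of tissues. For Meg3 it was 0.16 in naive ganglia and -0.70 in cultures. The contralateral groups hold 2 libraries each, and 39% of all genes had groups there that did not overlap.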

How the results depend on the processing

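The count of members called was 0 under every alternative run in 7 of the 8 tested comparisons. In injury of control mice, where it was 0, it was 2 at an adjusted p under 0.1 (Meg3 and Snhg11), where 28.6% of all genes were called. It was 0 to 2 with single replicates left out, where 14.4% to 18.9% of all genes were called. With the replicate number as a block it was 1 (Snhg11, adjusted p 0.0156 by edgeR's quasi-likelihood test), where 20.6% of all genes were called. Same-numbered libraries did not deviate together in every pair (correlations of -0.566 to 0.521 in naive and injured ganglia, 0.077 to 0.367 in cultures), so the numbers were not taken as pairs. It changed no other call of a member, and moved the naive genotype calls over all genes from 2 to 1 and, with the mouse as block, those between sides from 1 to 0. In the 2 sham mice of each genotype the sides correlated at -0.196 (cKO) and 0.29 (control). The number of members without overlap in cultures was 5 under RLE factors, plain library totals, deposited FPKM and the stricter filter, and 5 to 6 with single replicates left out. Without ipsilateral cKO replicate 2, the log2 fold changes there became -0.41 for Malat1, -0.20 for Meg3 and -0.049 for Mirg. Over single mice left out they ran from -0.41 to 0.78, -0.20 to 0.66 and -0.04 to 0.82, and for Rian from -0.026 to 0.179. Rian in cultures ran from -0.022 to 0.137. The cause was not tested in any of these. Over all genes, calls in injury of cKO mice ranged from 1414 with sex as a covariate (2 of 3 injured and no naive cKO libraries are male) to 5252 at an adjusted p under 0.1, against 3962, and in injury of control mice from 3116 without injured replicate 2 to 6083, against 4601. Between genotypes the ipsilateral count was 1, and 626 without a filter or 135 without sham cKO mouse 1. The contralateral count was 0, and 59 without a filter. Between sides it was 1, and 381 without a filter or 41 without sham cKO mouse 1. The genotype comparisons of naive and injured ganglia gave 2 each, with ranges of 0 to 3 and 0 to 15. The 15, and the 8 of the interaction against 0, came without injured cKO replicate 1. Mirg had the fewest counts of the members, 23 to 358 a library.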
